A study of Tripsacum dactyloides with 133 samples.

Results

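Crown-root transcriptomes of well-watered plants of the cultivar Pete of eastern gamagrass, a perennial grass related to maize, were compared between plants with high and low plant numbers. The plants were the 62 test-phase plants that were kept well-watered and had received a live soil inoculum. The rest of the series was 63 drought-treated plants with a live inoculum and 8 plants with a mock inoculum. The median number of the well-watered live plants was 443.5. The early group held the 31 plants from plantID_394 to plantID_443 and the late group the 31 plants from plantID_444 to plantID_491. The number was read from the sample labels and no expression value entered the choice. All 62 plants shared the genotype, the tissue, the water treatment and a live inoculum. The inocula came from 4 Kansas sites, CWR, WEL, SVR and TRI, and had been conditioned with gamagrass or with no host, under drought stress or ample water. Used for comparison were 4 well-watered plants with a mock inoculum and the 63 live-inoculum plants that had been under drought in the test phase (32 early and 31 late, divided at their own median, plantID_279).

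The labels give the plant number as an identifier only, and the methods state that pots were fully randomized. What else followed the number, such as the order of harvest, extraction or sequencing, is not given in the sources used here. Crown roots are the shoot-borne roots that make up most of the root system of a mature grass, and they are a main site of water uptake. The abundance of a transcript in such a sample depends on the cell types in the piece of root, on the state of the plant and on the handling of the tissue. With fewer reads per library, transcripts of low abundance are more often counted at 0. Neither deposited table gives gene names. A role is therefore given only where the study assigned one through a maize orthologue, and the crown-root identity of the samples could not be checked against marker genes.

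The treatments were spread evenly over the groups. CWR supplied 7 early and 9 late plants, SVR 9 and 7, TRI 9 and 7, and WEL 6 and 8. The smallest p of Fisher's exact tests of group against site, legacy, conditioning host and conditioning water was 0.446, for legacy (low-precipitation sites SVR and TRI, 18 early and 14 late plants). The total count was not even. Early libraries held 1.14 to 69.4 M counts (M, 1000000 counts), with a median of 49.1 M, whereas late libraries held 8.05 to 41.5 M, with a median of 19.5 M. The means differed by -24.5 M (two-sided permutation test, 100000 permutations, p = 1e-05, the smallest they can give, adjusted p = 2e-05 over 4 library measures). The 2 ranges overlapped, with 6 early and 28 late libraries under 30 M counts. The number of genes with a count fell by 1722 on average (adjusted permutation p = 9e-05), and the 100 most abundant genes took 1.87 percentage points more of the counts in late plants (adjusted permutation p = 2.67e-05).

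**Figure D1:**
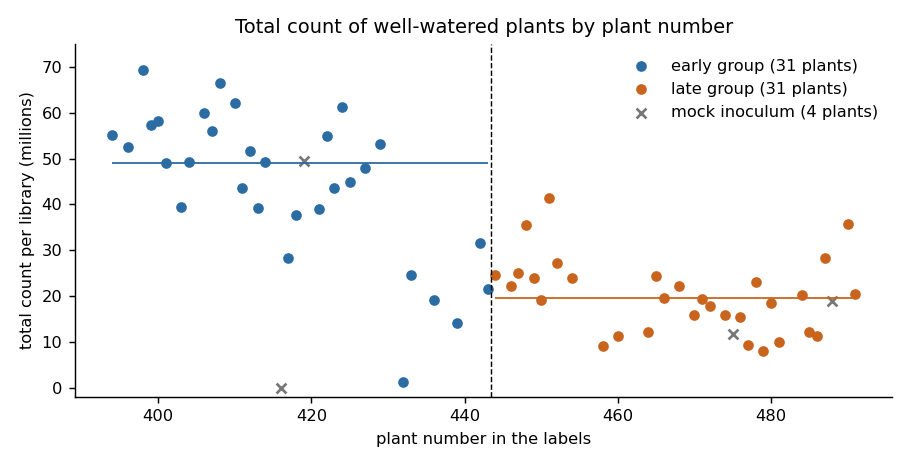
Total count per library, in M, against plant number for well-watered plants. Points are single plants, horizontal lines are the medians of the groups (49.1 M and 19.5 M), crosses are plants with a mock inoculum and the dashed line is the median number of 443.5. The fall lies inside the early group, between plantID_429 and plantID_432.

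The fall in total count did not lie at the boundary between the groups. The 25 early plants up to plantID_429 held 28.2 to 69.4 M counts (median 51.5 M). The 6 early plants from plantID_432 to plantID_443 held 1.14 to 31.5 M (median 20.3 M), close to the late median. The lowest, 1.14 M, was plantID_432, which stood apart from all other live plants. Across the 62 plants the total count declined with plant number (Pearson's r = -0.796, Spearman's rho = -0.779, permutation p = 1e-05 for each, adjusted p = 4e-05 over 4 sets of plants). With the 2 most extreme numbers left out, r was -0.784. It was r = -0.698 and rho = -0.664 within the early group (adjusted permutation p = 4e-05 and 6e-05, r = -0.664 without the 2 farthest plants), which holds the fall. Within the late group the values were lower in size (r = -0.322, rho = -0.313, adjusted permutation p = 0.0846 and 0.0851, r = -0.306 without the 2 farthest plants). Within early plants up to plantID_429 it had r = -0.352 and rho = -0.388 (adjusted permutation p = 0.0846 and 0.0754, r = -0.39 without the 2 farthest plants). Plant number and total count were thus tied in these plants, and results are given below with total count taken into account in several ways.

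A broad set of genes differed between the groups. With legacy, conditioning water and conditioning host as covariates, DESeq2 called 4610 of 38800 genes at an adjusted p under 0.05 (11.9% of those tested). Of these, 2518 were higher (6.49%) and 2092 lower (5.39%) in late plants. The median log2 fold over all genes was 0.04. The balance of the directions depended on the scaling, since with TMM size factors 2055 genes were higher and 2837 lower. Most differences were small, and the groups overlapped. Among called genes with a mean normalized count of at least 50, 1673 higher and 1785 lower, the median log2 folds were 0.41 and -0.40. No gene among them separated the groups without overlap (0 genes). The ratio of the medians had the direction of the fold for 99% of the higher and 99.6% of the lower genes. The same plants chose these genes, so this agreement is a description only. Of 192 higher and 372 lower genes with a fitted change of at least 2-fold, 52.6% and 57% also showed it between medians.

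Calls were fewer when total count was taken into account. Thinning every library of at least 10 M to 10 M counts (30 early and 28 late plants) left 3481 called genes (9.75% of those tested, 4.97% higher and 4.78% lower), 3256 of which had been called in the same direction before thinning. With log2 total count as a further covariate, DESeq2 called 2752 genes (7.83%, 3.76% higher and 4.08% lower), and 1825 of them were among the first 4610, all in the same direction. In the range of total count that both groups covered (8.05 to 41.5 M, 10 early and 31 late plants), 1317 genes were called (4.06%), 949 of them shared, from a comparison with fewer plants. In that range 1.43% of genes were higher and 2.63% lower in late plants. All 3 checks and the first model together called 727 genes in the same direction, 15.8% of the first set, with 174 higher and 553 lower. These checks use the same plants, and only 10 early plants lie in the shared range. Whether any of the calls, these 727 included, follow total count or plant number cannot be told apart.

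**Figure D2:**
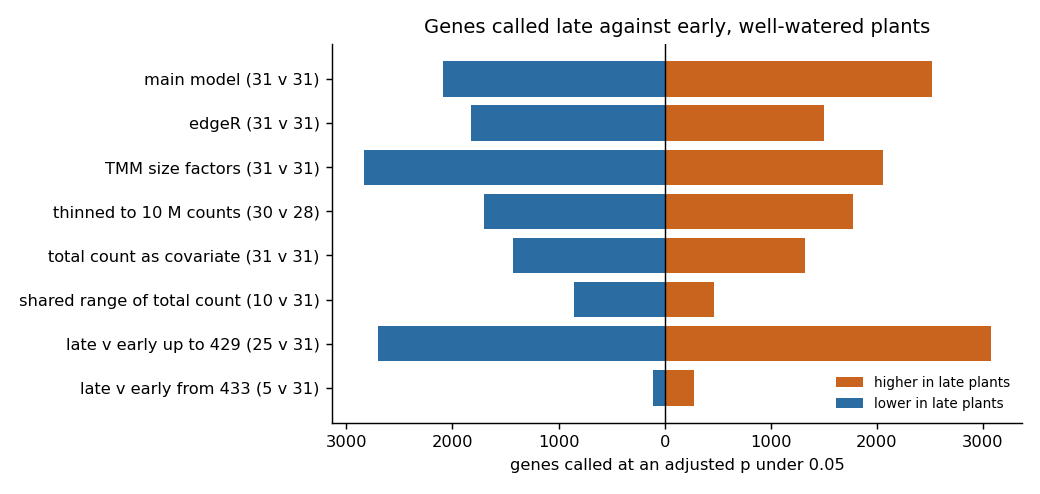
Genes called late against early at an adjusted p under 0.05, with genes higher in late plants to the right and lower to the left, under 8 settings that name the number of early and late plants. The count was 4610 for all 62 plants and 5782 for late plants against the 25 early plants up to plantID_429. Settings with fewer plants are not comparable in count.

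Plant number was also used as a linear term. As such a term within the early group, it gave 1983 called genes (5.45%, DESeq2 adjusted p), and 1795 (4.82%) without plantID_432. Within early plants up to plantID_429, 264 genes were called (0.615%), and within the late group 93 genes (0.219%). Late plants differed from early plants up to plantID_429 in 5782 genes (14.9%, 7.94% higher and 6.99% lower) and from the 6 early plants from plantID_432 to plantID_443 in 420 genes (1.3%), or 0.948% of genes without plantID_432. Those 6 plants differed from the early plants up to plantID_429 in 1924 genes (5.16%), or 1784 (4.5%) without plantID_432. Of the 1924, 338 were also called late against early, 331 of them in the same direction (17.2% of the 1924). Of all tested genes, 11.9% were called late against early in either direction. The early plants up to plantID_429 stand on the early side of both comparisons, so the directions are not independent. Leaving plantID_432 out of the whole comparison gave 4718 called genes (12.2%). The comparisons with 6 plants hold fewer samples, so their counts do not show a smaller change. These divisions of the early group were chosen after the total counts had been seen. Within the late group, log2 total count was also used as the tested term and gave 438 called genes (1.03%). Of these 438, 59 were also called late against early, a call made for 11.9% of all tested genes. Of the 59, 2 had the same sign. The late plants are in both fits. A positive sign here means higher at a higher total count.

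The 6 early plants after the fall in total count are described here beside the others. Of them, plantID_432, plantID_433 and plantID_439 had SVR inocula, plantID_436 CWR, and plantID_442 and plantID_443 TRI. All but plantID_443 had inocula conditioned with no host, and all but plantID_442 under drought stress. The values below are not adjusted for treatment, so inoculum treatment and plant number cannot be told apart for these plants. The 1953 genes called higher and the 2268 called lower in late plants against early plants up to plantID_429, with a mean count of at least 50, were chosen without these 6 plants. Their mean log2 CPM (counts per 1000000, TMM-scaled) was set relative to the average of the early plants up to plantID_429. For the higher genes, early plants up to plantID_429 ranged from -0.35 to 0.25 with a median of 0.04, the 6 plants from -0.17 to 0.47 with a median of 0.25, and late plants from 0.22 to 0.69 with a median of 0.52. For the lower genes the medians were -0.11, -0.47 and -0.69. The values of the 6 plants overlapped both neighbouring sets. The early plants up to plantID_429 set the zero and also chose the genes, so the distance of any plant from zero is a description and carries no test.

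**Figure D3:**
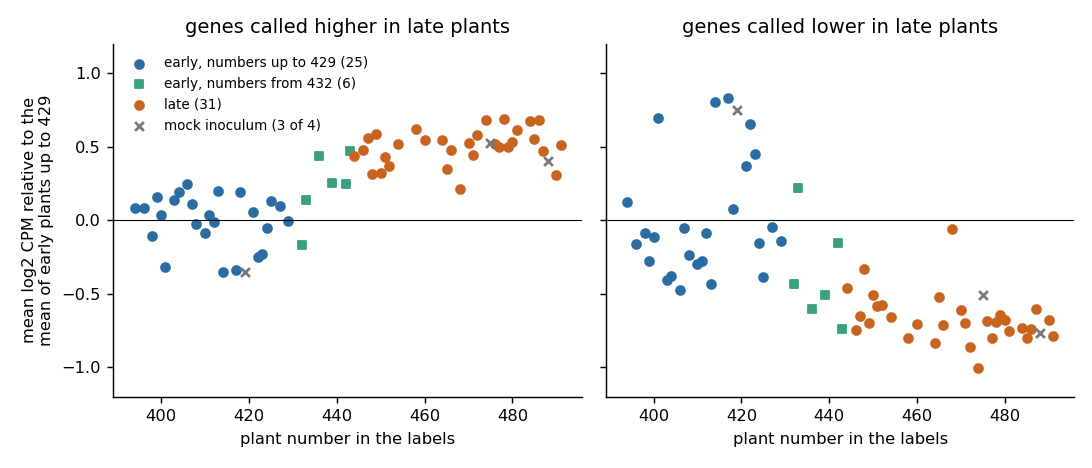
Mean log2 CPM of the genes called higher (left, 1953 genes) and lower (right, 2268 genes) in late plants against early plants up to plantID_429, relative to the mean of those early plants, by plant number. Points are single plants, squares are the 6 early plants from plantID_432 to plantID_443 and crosses are the mock plants plantID_419, plantID_475 and plantID_488. The round points chose the genes and the early ones also set the zero, so no distance from zero is independent of the choice. The mock plantID_416, with 0.00605 M counts, is left out.

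The mock plants, which entered no model, also differed in this direction. Of the 4 mock well-watered plants, plantID_416 held 0.00605 M counts and was not used. The mock plant with an early number was plantID_419 (49.4 M counts), and those with late numbers were plantID_475 (11.7 M) and plantID_488 (19 M). Among genes called higher in late live plants with a mean count of at least 50, 81.5% were higher in the mean of plantID_475 and plantID_488 than in plantID_419. Among genes called lower it was 6.0%, against 45.4% of all 25407 genes at that mean count. The median log2 differences were 0.48 for the higher, -0.94 for the lower and -0.08 for all genes. For the genes called between late plants and early plants up to plantID_429, plantID_419 lay near the edge of those early plants. Its mean log2 CPM relative to their average was -0.35 for the higher and 0.75 for the lower genes. Those early plants had medians of 0.04 and -0.11 and ranges of -0.35 to 0.25 and -0.47 to 0.83. The shares given here thus depend on 1 early mock plant far from the early median. With 1 plant against 2 no test was made, and total count was again lower in the plants with late numbers.

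The comparison was repeated within each site. DESeq2 called 1078 genes within CWR (3.05%), 467 within SVR (1.45%), 496 within TRI (1.4%) and 0.854% of genes within WEL. The sites share no plants. Genes called within 1 site had the same sign in another for 71.5 to 91.9% of genes, over the 12 ordered pairs, whereas over all genes the share was 53 to 64.6%. Where both sites of a pair called a gene, the direction was the same in 99.3% of cases, over the 6 pairs. At least 3 sites called 50 genes, and 48 of these had the same sign in all 4. The median total count was also lower in late plants of each site, at 55 M against 19.1 M in CWR, 39.3 M against 20.5 M in SVR, 49.1 M against 20.3 M in TRI and 49 M against 20.7 M in WEL. Its part in the calls within sites was not tested.

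Td00002ba029889 was 1 of the 2 genes higher in late plants that were named for the smallest p and the same sign in all 4 sites. It is orthologous to maize Zm00001eb205100, for which the sources used here give no role, and lies on chromosome 9 from 101324007 to 101325992 on the minus strand. Its normalized count was 298 to 1144 in early plants, with a median of 446.98, and 609 to 1833 in late plants, with a median of 1217. All 31 late plants were above the early median, and 17 were above the highest early plant, although the ranges overlapped. The log2 fold was 1.07 ± 0.13 (SE, DESeq2 adjusted p = 4.67e-13), and log2 CPM differed by 0.93 to 1.33 in the 4 sites. In the 6 early plants from plantID_432 to plantID_443 the median was 875, against 427.1 in the other early plants. In the shared range of total count the fold was 0.46 (adjusted p = 0.0724), and with total count as a covariate 0.72 (adjusted p = 5e-05). Against the 6 early plants from plantID_432 it was 0.29 (adjusted p = 0.507). The mock plants had a log2 CPM of 3.26 in plantID_419 and of 5.44 and 5.79 in plantID_475 and plantID_488.

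The other gene with a very small p among those higher in late plants was high in a minority of them. Td00002ba025986 (chromosome 8, 17603329 to 17621984, minus strand) has no maize orthologue in the deposited table and overlaps a gene on the other strand, whose reads cannot be told apart from its own. Early plants held 0 to 24.3 normalized counts with a median of 6.5. Late plants held 0 to 1848 with a median of 12.2. The fitted log2 fold of 5.24 ± 0.54 (DESeq2 adjusted p = 2.92e-18) rested on 11 late plants above the highest early plant, and 5 plants held 77.1% of its normalized counts. Most late plants overlapped the early ones. It was also one of the largest rises that passed all 3 checks of total count. The other was Td00002ba002243 (chromosome 1, 120519017 to 120524027, minus strand), which had a count of 0 in 18 early and 15 late plants and reached 1160 and 1470 in single plants. Its log2 fold was 5.72 ± 1.36 (DESeq2 adjusted p = 0.00089), and edgeR's quasi-likelihood test gave an adjusted p of 0.0997. Without covariates the fold was 1.40 (DESeq2 adjusted p = 0.569), without CWR plants 2.06 (adjusted p = 0.469) and with limma voom 1.74 (adjusted p = 0.31). The fit without covariates could also replace extreme counts, unlike the main model. Single plants of both groups were high for it.

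The genes with the strongest fall were low in late plants and very variable in early ones. Td00002ba006845 (chromosome 2, 76241812 to 76242084, plus strand, maize orthologue Zm00001eb158640) ranged from 0 to 3081 normalized counts in early plants, with a median of 48.6. In late plants it ranged from 0 to 13.6, and 17 of the 31 had a count of 0. Its log2 fold was -7.65 ± 0.72 (DESeq2 adjusted p = 9.55e-22), and 19 early plants were above the highest late plant. Td00002ba001764 (chromosome 1, 81280717 to 81283005, minus strand, maize orthologue Zm00001eb044080) ranged from 0 to 8074 in early plants with a median of 42.6, and from 0 to 124.2 in late plants, 18 of which had a count of 0. Its log2 fold was -7.57 ± 0.79 (DESeq2 adjusted p = 6.27e-18). Td00002ba039150 (chromosome 14, 66437105 to 66437696, plus strand, no maize orthologue in the table) ranged from 2.45 to 8407 with a median of 53.7 in early plants and from 0 to 99.9 with a median of 10.4 in late plants. Its log2 fold was -5.99 ± 0.59 (DESeq2 adjusted p = 7.03e-20). Td00002ba006845 and Td00002ba039150 were named for having the same direction in each site, so that agreement was set by the choice. Td00002ba001764 had the same direction in each site as well. For all 3 genes between 65% and 81% of the counts lay in 5 plants. The highest late plant lay below 13 early plants for Td00002ba001764 and below 14 for Td00002ba039150.

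The high values of many falling genes lay in the same early plants. For the 372 called genes that were at least 2-fold lower in late plants, with a mean count of at least 50, the highest log2 CPM among late plants was taken gene by gene. The number of these genes above that level was 5 to 300 in early plants, with a median of 36. It was 200 or more in 7 early plants, plantID_401, plantID_414, plantID_417, plantID_421, plantID_422, plantID_423 and plantID_433, which came from all 4 sites and held 24.7 to 55 M counts. The remaining early plants lay between 5 and 169. The mock plantID_419 had 282 genes above that level, and plantID_475 and plantID_488 had 18 and 5. For the 192 genes at least 2-fold higher in late plants, late plants had 8 to 96 genes above the highest early plant, with a median of 32, and no plant reached 100. These counts describe how the values are distributed, since the same plants chose the genes.

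Drought-treated plants have lower numbers than all well-watered plants (plantID_193 to plantID_388), so water treatment and plant number cannot be told apart between the 2 sets. Their total counts differed less between groups, with medians of 56.8 M in early and 51 M in late plants. DESeq2 called 10018 of 38130 genes late against early among them (26.3%), 5173 higher (13.6%) and 4845 lower (12.7%). Of the genes called in well-watered plants, 1752 were also called in drought plants, 38% of the well-watered and 17.5% of the drought list. The sets share no plants. Only 319 of these moved in the same direction and 1433 (81.8%) in opposite directions, whereas 58% of all 25355 genes with a mean count of at least 50 in both had opposite signs. The largest part, 1078 genes, was lower in late well-watered and higher in late drought plants. Across those 25355 genes the folds had r = -0.270, a description only, since genes are not independent replicates. With total count as a covariate in well-watered plants 88.7% of 1154 shared calls were opposite, and in the shared range 98.2% of 762.

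**Figure D4:**
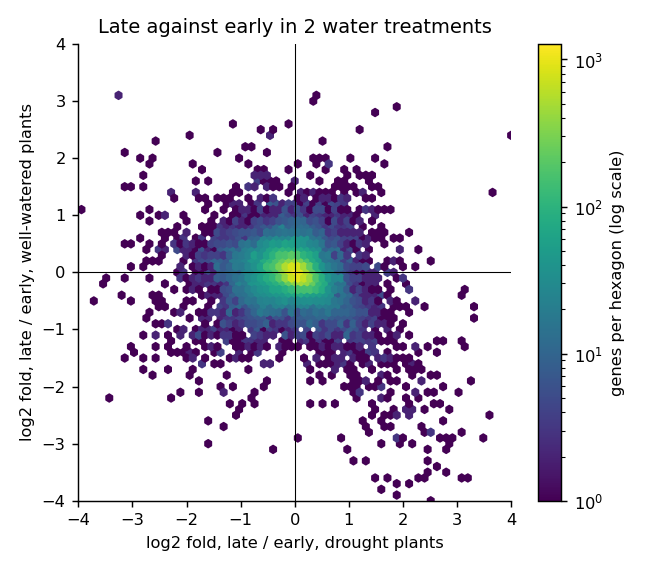
Log2 fold late against early in drought plants (x axis, 32 early and 31 late) and in well-watered plants (y axis, 31 and 31) for 25355 genes with a mean count of at least 50 in both. Colour gives the number of genes per hexagon on a log scale, and 45 genes lie outside the range drawn. The genes spread most towards the lower right, higher in late drought and lower in late well-watered plants.

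The difference between the 2 water treatments was itself tested. In a model of all live plants, the interaction of group with test-phase water was called for 9107 of 39641 genes (23%, DESeq2 adjusted p), 4406 more positive (11.1%) and 4701 more negative (11.9%) in well-watered plants. With total count as a covariate it was called for 9377 genes, and by edgeR for 8343. The genes that were at least 2-fold lower in late well-watered plants also showed high values in the drought plants of the late group. A median of 192 of the 372 genes (lowest 4) lay above the highest late well-watered plant in late drought plants, and a median of 22 (3 to 281) in early drought plants. At least 200 did so in 14 of 31 late and 3 of 32 early drought plants. High values of these genes thus occurred in late drought plants and in some early well-watered plants. In early well-watered plants they follow from the choice of the genes, and the median there was 36 genes. The drought plants did not enter that choice.

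Next are the 2 genes with the smallest p for an interaction that was negative in well-watered plants. Their medians rose between drought groups and fell between well-watered groups. On the scale of the joint model, Td00002ba040938 (chromosome 15, 87291782 to 87312580, minus strand, no maize orthologue in the table) had medians of 538 (268 to 9719) in early drought, 6658 (323 to 27753) in late drought, 851 (227.7 to 15726) in early well-watered and 349 (104.01 to 2137) in late well-watered plants. It rose 2.54 ± 0.35 on the log2 scale between drought groups and changed by -2.84 ± 0.36 between well-watered groups (DESeq2 interaction -5.32 ± 0.50, adjusted p = 6.13e-22). Td00002ba001374 (chromosome 1, 62533520 to 62536041, minus strand, maize orthologue Zm00001eb050380) had medians of 153, 1271, 245.3 and 65.1 in the same order, with an interaction of -5.59 ± 0.55 (DESeq2 adjusted p = 4.78e-20). Every late well-watered plant lay below its early well-watered median, and 21 early plants lay above the highest late plant. Plants within each group still overlapped those of the next.

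The 2 genes with the smallest p for a positive interaction lie near each other on chromosome 8 and took the reverse course. Td00002ba027032 (58693365 to 58701760, plus strand) had medians of 104.7 (1.2 to 838) in early drought, 8.76 (0 to 105.5) in late drought, 9.26 (0 to 79.3) in early well-watered and 45.2 (0 to 2525) in late well-watered plants. Its log2 fold was -3.30 ± 0.45 between drought groups and 3.07 ± 0.53 between well-watered groups (DESeq2 interaction 6.97 ± 0.72, adjusted p = 1.94e-18). Td00002ba027037 (58971739 to 58976895, plus strand) had medians of 91.3, 9.86, 7.81 and 37.6, with an interaction of 6.96 ± 0.76 (adjusted p = 8.73e-17). Over both well-watered groups 5 plants held 76.9% and 77% of the counts of these genes. Both missed the threshold between well-watered groups in the shared range of total count (DESeq2 adjusted p = 0.0612 and 0.0539). Neither gene has a maize orthologue in the table.

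**Figure D5:**
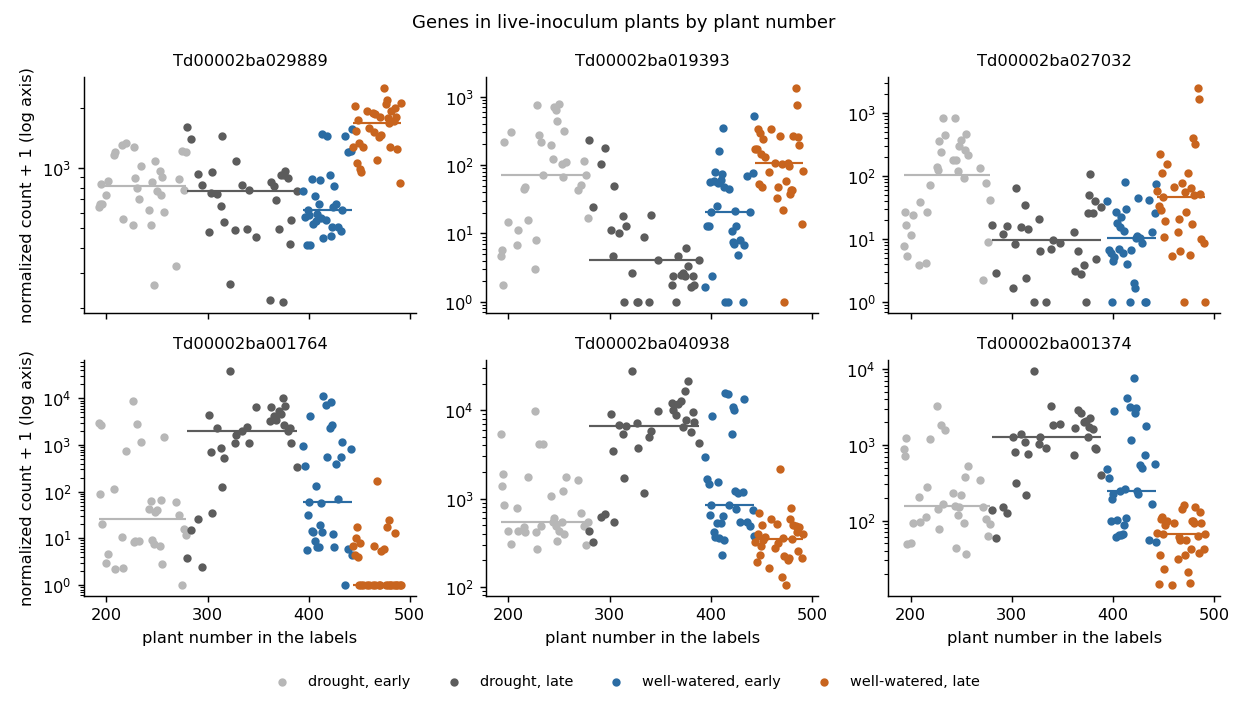
Normalized count plus 1 (log axis, joint scaling of all live plants) against plant number for 6 genes. Points are single plants and horizontal lines are the medians of the 4 groups. Td00002ba001764, Td00002ba040938 and Td00002ba001374 have their highest median in late drought plants and their lowest in late well-watered plants.

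Genes tied to a role through the study were mostly not called. The defence and symbiosis list was drawn from orthologues of genes that the study named in maize. The other lists hold genes that the study picked on these samples for legacy or drought. Of 22 genes in 4 lists, 16 had an adjusted p, and 1 was called higher and 2 lower. Of all genes tested, 6.49% and 5.39% were called in these directions. The median log2 fold was -0.30 over the 22 genes and 0.04 over all genes. The remaining 6, the nicotianamine synthase genes and the pathogenesis-related pair, got no p from DESeq2 because of an extreme count in at least 1 plant (Cook's distance). They enter the median of -0.30 with folds from -2.95 to -1.61, and some are overlapping copies with nearly the same values. The lists without such genes had medians of -0.22 (water-stress signalling) and 0.24 (metabolism, hormones and development).

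In the list of water-stress signalling genes, orthologues of maize genes placed in the ethylene or abscisic acid pathways and a heat shock protein, 1 of 6 was called. Td00002ba000033 (chromosome 1, 16703690 to 16704940) was at 5.31 to 270 normalized counts in early plants with a median of 31.2, and at 0 to 120 in late plants with a median of 23.7. The groups overlapped widely. Its log2 fold was -1.08 ± 0.37 (DESeq2 adjusted p = 0.038), and by edgeR the adjusted p was 0.0779. Without plantID_432 the adjusted p was 0.0544. Td00002ba011993, the orthologue of ereb177, an ethylene-responsive transcription factor gene, had a log2 fold of -0.76 ± 0.32 (adjusted p = 0.11) and lower log2 CPM in late plants of all 4 sites. The heat shock protein gene Td00002ba042486 had medians of 3.71 in early and 12.7 in late plants. Its fold of 0.70 ± 0.52 did not pass the test (adjusted p = 0.429), and 5 plants held 77.8% of its counts. Td00002ba024351, Td00002ba005402 and Td00002ba004498 had log2 folds of -0.19, -0.05 and -0.24 with standard errors of 0.15, 0.30 and 0.43.

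The 4 orthologues of maize nas7, which encodes a nicotianamine synthase and so makes a chelator that plants use to move iron and zinc, were close to 0 in both groups. Td00002ba015515 and Td00002ba015516 overlap on opposite strands of chromosome 4 and held the same values, 0 to 619 normalized counts in early plants (median 2.28) and 0 to 53.9 in late plants (median 1.32). Td00002ba015525 had a count of 0 in 14 early and 26 late plants, as did Td00002ba015526, and 5 plants held 96.4% and 96% of their counts. The fitted log2 folds lay between -2.95 and -1.95 with no adjusted p. With plant number as a linear term all 4 were called lower (DESeq2 adjusted p from 0.008 to 0.0462), and with total count as a covariate Td00002ba015515 and Td00002ba015516 were (-2.48, adjusted p = 0.0268). Without covariates the fold of this pair was -0.13 (adjusted p = 0.911). Unlike the main model, that fit could replace extreme counts, so the part of the covariates in this change cannot be told apart. The linear and total-count fits hold the same plants as the main model, which gave no p because of extreme counts. In the linear and total-count fits no p was removed for extreme counts, so those counts stayed in. The part of those counts in these calls was not tested. Reads of such near-identical and overlapping copies were shared among them as fractions.

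Among defence and symbiosis genes, orthologues of maize genes linked to pathogens or symbiotic fungi, none of the 4 with an adjusted p was called in well-watered plants (0 genes, with unadjusted p-values under 0.05 for 9678 of all genes). Td00002ba028085 had medians of 115.01 in early and 42.6 in late plants and a log2 fold of -0.92 ± 0.49 (DESeq2 adjusted p = 0.234). For Td00002ba019413, an orthologue of the same maize gene, it was -0.36 ± 0.47. The fold of Td00002ba031190 was 0.20 ± 0.35 and that of Td00002ba006103 was -0.09 ± 0.31. In drought plants Td00002ba019413 rose 3.15 ± 0.49 on the log2 scale (DESeq2 adjusted p = 2.23e-08). The overlapping pair Td00002ba005375 and Td00002ba005376, related to a pathogenesis-related protein gene, rose 4.16 ± 0.65 there. In well-watered plants 5 plants held 98.2% of the counts of this pair, and its fold of -1.61 ± 1.0 had no adjusted p.

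Among genes of metabolism, hormones and development, Td00002ba019393, the orthologue of the MADS-box transcription factor gene mads58, was higher in late plants. Early plants held 0 to 375.1 normalized counts with a median of 14.3, and late plants 0 to 970 with a median of 76.2. Although the ranges overlapped, 29 of 31 late plants were above the early median. The log2 fold was 2.07 ± 0.44 (DESeq2 adjusted p = 0.000146), and log2 CPM was higher in late plants of all 4 sites, by 1.5 to 2.94. In drought plants it changed in the opposite direction, by -3.14 ± 0.57 (DESeq2 adjusted p = 1.8e-06). In the shared range of total count its fold was 1.78 (adjusted p = 0.0641).

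Td00002ba026366, assigned to an L-allo-threonine aldolase, an enzyme that splits this amino acid to glycine, was lower in late plants. Early plants held 20.1 to 1047 normalized counts with a median of 214, and late plants 9.21 to 609 with a median of 90.6. The log2 fold was -1.07 ± 0.34 (DESeq2 adjusted p = 0.0182), with 28 of 31 late plants below the early median. Without CWR plants the fold was -0.59 (adjusted p = 0.481), and after thinning -0.94 (adjusted p = 0.0653). The tryptophan synthase gene Td00002ba012570 was even across the groups, at 712 to 1619 in early and 518 to 2185 in late plants, with a log2 fold of -0.04 ± 0.10. The peroxidase gene Td00002ba025285 had a fold of 0.26 ± 0.41. For Td00002ba033830, the orthologue of ga20ox7, a gibberellin oxidase gene, it was 0.38 ± 0.47. For Td00002ba019383, the orthologue of ms33, a gene named for male sterility in maize, it was 0.22 ± 0.39.

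The share of called genes is given here by class of gene, with no test of the differences. Genes with a maize orthologue were called higher in 6.03% and lower in 6.24% of 29232 tested, and genes without one in 7.88% and 2.81% of 9568. With total count as a covariate, 982 of 26990 genes with an orthologue and 294 of 7815 without one were called higher, 1222 and 183 lower. Genes with a mean normalized count under 10 were called higher in 5.70% and lower in 1.14%, and those over 1000 in 9.86% and 6.71%. With the covariate it was 67 and 51 of 4130 genes under 10, and 359 and 310 of 7343 over 1000. Of genes on unplaced scaffolds, 99 of 506 were called higher (19.6%) and 6 lower. With total count as a covariate it was 43 and 2 genes. Chromosome 13 had the highest share of higher genes among the chromosomes, 10.7% of 1417, and the others lay between 5.27% and 7.39%. With the covariate 65 of 1243 genes on it were called higher.

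Orthogroups were picked by the number of members called higher, a choice that favours large families. Of all tested genes, 6.49% were called higher. OG0000010 had 35 of its tested members called higher (30.2%) and 1 lower, and OG0000018 had 29 of 90 (32.2%) and 0 lower. Their members lie on nearly all chromosomes, and the median of the mean counts of the OG0000018 members was 6.49. With total count as a covariate 7 and 6 members were called higher, and in the shared range of total count 2 and 0. Summed over the members of OG0000010, normalized counts were 67852 to 85960 in early plants (median 76581) and 69671 to 95973 in late plants (median 80814), so the groups overlapped. The files do not name the family. Such families can share reads among copies, and those were counted as fractions.

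Among orthogroups with the most genes called lower, OG0000721 had all 5 tested members lower, with log2 folds from -3.35 to -1.91. They lie together on chromosome 5 between 116683461 and 118019816 and are orthologous to the maize genes Zm00001eb091170 and Zm00001eb091190. Their summed normalized count was 5.64 to 10439 in early plants (median 287) and 0 to 2806 in late plants (median 125.9). With total count as a covariate none of the 5 was called lower (0 genes by DESeq2), and after thinning 2 were. In OG0000272, 5 of 9 tested members were lower and 0 higher. Both were picked by the number of members called lower, and 5.39% of all tested genes were called lower.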

How the data were processed

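RNA of crown roots was sequenced by the authors from poly(A) libraries made with a directional kit. According to the methods, reads were trimmed with cutadapt, aligned with HISAT2 to a gamagrass assembly, cleared of duplicates with SAMtools and counted by featureCounts. Per gene, the table deposited by the authors holds expected counts that are not normalized, in which multi-mapped and overlapping reads count as fractions. The paired-end option was set, but no option to count pairs in place of single reads and none for strand is given. They were rounded for DESeq2 1.42.0, edgeR 4.0.16 and limma 3.58.1 (R 4.3.3). A second deposited table pairs genes with maize orthologues.

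Each library is 1 plant. The early and late groups were divided at the median plant number. The main model was DESeq2's Wald test with legacy, conditioning water and conditioning host, over the 62 well-watered live plants, with Benjamini-Hochberg adjustment at 0.05 after DESeq2's independent filtering and removal of p-values for counts with an extreme Cook's distance. All tests were two-sided. Precision is given as the standard error of each fold. Total counts were 1.14 to 69.4 M. The legacy of a site is that of the study (low precipitation for SVR and TRI, high for the others). For log2 CPM, TMM scaling and an added prior count of 1 were used. Scripts were tested on simulated data.

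Genes were named by rule: the 2 higher and 2 lower with the smallest p and 1 sign in all 4 sites, the 2 largest rises and falls that passed 3 checks of total count, the 2 strongest interactions each way, all with a mean count of at least 50, every gene of 4 lists taken from the study, and the 2 orthogroups with most calls in each direction. The comparison, the lists and the rule were chosen with earlier results of these data known. Alternatives covered the tool, size factors, covariates, filters, total count, sites and the use of plant number. Sequences and functions are not reported, because no annotation was used here.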

Additional observations from a re-analysis of the deposited data

Results flagged for a closer look

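For 15 named genes the change from early to late plants differed between the water treatments by a test of that difference (DESeq2 interaction of group with test-phase water, adjusted p under 0.05, over 39641 genes of which 23% passed). Each value is the interaction term of the joint model, on the log2 scale and positive where late against early was higher in well-watered than in drought plants. The folds printed for each treatment come from separate models with their own scaling and dispersion, so their difference need not equal it. Plant numbers of the 2 treatments do not overlap, so treatment and number cannot be told apart.

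The difference was positive for 7 genes. It was 6.97 for Td00002ba027032 and 6.96 for Td00002ba027037, 5.19 for Td00002ba019393 (mads58), 2.69 for Td00002ba025986 and 1.23 for Td00002ba029889. For Td00002ba025986 alone it missed the threshold with total count as a covariate (1.48, DESeq2 adjusted p = 0.224) and by edgeR (2.75, adjusted p = 0.0567). For 2 further genes that were not called in well-watered plants it was 2.72 (Td00002ba019383, ms33) and 2.24 (Td00002ba025285, a peroxidase).

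It was negative for 8 genes. The most negative values were -10.01 for Td00002ba001764, -8.94 for Td00002ba006845 and -7.70 for Td00002ba039150, whose late well-watered plants were near 0. Td00002ba001374 had -5.59 and Td00002ba040938 had -5.32. Among defence genes it was -4.24 for both Td00002ba005375 and Td00002ba005376, which overlap, and -3.18 for Td00002ba019413. All 3 rose in drought plants. In well-watered plants Td00002ba019413 did not pass the test and the pair had no p.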

How the results depend on the processing

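The 4610 genes called late against early lay outside a factor of 1.5 under 5 alternatives: 2888 with limma voom, 2752 with total count as a covariate, 1857 without site CWR, 1317 in the shared range of total count and 420 for late plants against early plants from plantID_432 (0.948% of genes without plantID_432). Leaving out CWR removes 7 early and 9 late plants, and leaving out another site gave 3208 to 4271. edgeR called 3321, and without plantID_432 DESeq2 called 4718. The fall in mean total count kept its direction on the log10 scale (-0.32, permutation p = 1e-05). The interaction counts (8343 and 9377) stayed within a factor of 1.5 of 9107. No paired analysis was possible because the labels give each plant its own number and no replicate shared between groups.

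None of the named genes called in well-watered plants reversed under the alternatives run. Td00002ba029889 and Td00002ba019393 missed the threshold in the shared range (0.46 and 1.78) and against early plants from plantID_432 (0.29 and 1.09), Td00002ba000033 under 10 of 20 alternatives, Td00002ba002243 under 5 of 17, Td00002ba026366 under 5 of 20, Td00002ba039150 with limma voom (adjusted p = 0.0683) and Td00002ba001764 against early plants from plantID_432 (adjusted p = 0.0574). The 4 nas7 orthologues, which had no p in the main model, were called with plant number as a linear term, and 2 of them with total count as a covariate. Calls were gained under 1 alternative each for Td00002ba011993 and Td00002ba033830. Signs turned for genes that were not called, and the cause was not tested. Against early plants from plantID_432, log2 folds were -0.15 (Td00002ba019383), -0.35 (Td00002ba025285), -0.92 (Td00002ba033830), 0.054 (Td00002ba024351), 0.42 (Td00002ba005402), 0.94 (Td00002ba004498), 1.18 (Td00002ba019413) and 2.09 (Td00002ba028085). Against early plants up to plantID_429, Td00002ba031190 had -0.045. With limma voom they were -0.23 (Td00002ba019383), 0.20 (Td00002ba006103) and 0.43 (Td00002ba005375 and Td00002ba005376). In the shared range they were -0.12 (Td00002ba033830), -0.16 (Td00002ba025285), 0.021 (Td00002ba024351), 0.31 (Td00002ba004498) and 1.09 (Td00002ba015526). Without covariates Td00002ba004498 had 0.54, after thinning Td00002ba006103 had 0.026, and with total count as a covariate Td00002ba033830 had -0.31. Between the 20 lowest and the 20 highest numbers Td00002ba025285 had -0.15 and Td00002ba012570 had 0.045. Per 10 plant numbers Td00002ba031190 had -0.0048 and Td00002ba012570 had 0.0025. Without CWR they were -0.091 (Td00002ba031190), 0.25 (Td00002ba019413), 0.37 (Td00002ba006103) and 0.41 (Td00002ba005402). Without SVR Td00002ba025285 had -0.048 and Td00002ba012570 had 0.037, without TRI Td00002ba004498 had 0.12, and without WEL Td00002ba025285 had -0.10.

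Only 10 early plants share the range of total count of late plants, so total count and group are separated there by few plants. Genes near a count of 0 in late libraries were counted there at lower total counts. The part of total count in such values was not tested. After thinning and in the shared range, log2 folds were -7.28 and -7.03 for Td00002ba006845. They were -7.84 and -7.51 for Td00002ba001764.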

Other observations

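The late plant nearest to the early ones was plantID_468. Its mean log2 CPM over the 2268 genes lower in late plants was -0.06 relative to early plants up to plantID_429, against a late median of -0.69, and over the 1953 higher genes 0.22, the lowest of the late group. Its total count was 22.2 M, above the late median of 19.5 M. It was the highest late plant for Td00002ba001764 (124.2 normalized counts) and Td00002ba040938 (1548), both scaled over the well-watered live plants alone.

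Both from TRI, plantID_484 and plantID_485 held 1829 and 1203 normalized counts of Td00002ba027032, whereas the highest early plant held 57.8, on the same scale. For Td00002ba027037 they held 1718 and 1405. These plants were picked after their values had been seen.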
